A study of Mus musculus with 2 samples.

Results

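The naive pluripotency transcription factors are 10 genes that hold mouse embryonic stem cells (mESCs) in the ground state of the early epiblast, namely Klf2, Klf4, Klf5, Esrrb, Tbx3, Tfcp2l1, Nanog, Nr5a2, Nr0b1 and Prdm14. They were picked by symbol, and all 10 were found among the 18888 genes of the deposited expression table. RNA was sequenced from mESCs carrying the empty PiggyBac vector (PB) and from mESCs expressing polyadenylated TERRA from the same vector (PB-TERRA), with 1 library per condition. TERRA is the telomeric repeat-containing RNA transcribed from chromosome ends. Both groups are the same mESC line, which has a green fluorescent reporter at the Sox1 locus, at passages 21 to 24. They were kept on gelatin in conventional mESC medium, and the sources used here do not give the promoter that drives TERRA or whether the cells were a clone or a pool.

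Naive factors form a densely connected circuit in which each gene is held on by several others. LIF acts through STAT3 on Klf4, Klf5 and Tfcp2l1, and STAT3 also acts on Nr0b1. Wnt signalling relieves repression by TCF7L1 of Esrrb and is linked to Nr5a2, PI3K signalling sustains Tbx3, and FGF-ERK signalling works against Klf2, Nanog and Prdm14. The circuit is switched off as cells leave the naive state, when formative genes such as Otx2 and Fgf5 come up.

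RefSeq promoter windows (GRCm38.p6, from 250 bases before to 50 bases after a transcript start) were found for 7 of the 10 genes, and those for Klf5, Tbx3 and Prdm14 were not analysed here. The 3 windows shown belong to the factor with the largest difference among these 7 (Tfcp2l1), to the most abundant factor in PB (Nanog) and to a factor whose difference lay within counting error in the deposited values (Klf4). Capitals mark a TATA box (TATAAA) in Tfcp2l1, an OCT site (TTTGCAT) followed by a SOX site (ACAATG) in Nanog and GC boxes (GGGCGG, or CCGCCC on the other strand) in Klf4, each written 5′ to 3′ on the strand of the gene. The windows are chr1:118627695-118627994 on the + strand, chr6:122707315-122707614 on the + strand and chr4:55532426-55532725 on the - strand.
Tfcp2l1: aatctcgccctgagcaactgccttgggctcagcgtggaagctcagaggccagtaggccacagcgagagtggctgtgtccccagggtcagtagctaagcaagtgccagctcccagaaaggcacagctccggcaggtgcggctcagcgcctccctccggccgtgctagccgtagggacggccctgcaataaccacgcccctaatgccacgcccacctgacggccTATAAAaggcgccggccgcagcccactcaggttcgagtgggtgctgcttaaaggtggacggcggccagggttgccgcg
Nanog: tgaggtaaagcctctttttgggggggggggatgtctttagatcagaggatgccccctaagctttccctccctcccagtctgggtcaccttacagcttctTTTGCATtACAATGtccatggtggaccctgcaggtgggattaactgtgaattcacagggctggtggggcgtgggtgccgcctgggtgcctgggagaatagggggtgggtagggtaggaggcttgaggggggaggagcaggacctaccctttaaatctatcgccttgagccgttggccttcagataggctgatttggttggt
Klf4: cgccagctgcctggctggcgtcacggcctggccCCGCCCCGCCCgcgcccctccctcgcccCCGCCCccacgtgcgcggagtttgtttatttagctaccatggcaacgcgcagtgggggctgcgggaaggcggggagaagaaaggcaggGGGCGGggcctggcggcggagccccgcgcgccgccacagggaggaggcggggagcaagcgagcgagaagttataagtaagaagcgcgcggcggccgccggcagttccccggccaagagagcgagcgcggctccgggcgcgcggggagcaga
Motifs were searched on both strands. In the Nanog window the OCT site lies at positions -151 to -145 and the SOX site at -143 to -138, counted from the transcript start as 0. Both motifs were chosen after the window had been read. Nanog is the only 1 of the 7 windows with either of them, and they occur in 4.63% (OCT) and 12.6% (SOX) of the 32851 promoter windows. The TATA box of Tfcp2l1 lies at -28 to -23, and Nr0b1 has a TATA box at -32 to -27. The same letters occur in 3 of the 7 windows, the third being that of Nr5a2, and in 13.6% of all windows. The GC box occurs in Klf2 and Klf4 and in 35.7% of all windows. Exact letters of a TCF/LEF site (CTTTGAT), a STAT site (TTCNNNGAA), the site shared by ESRRB and NR5A2 (TCAAGGTCA) and a KLF site (GGGTGTGG) were found in 0 of the 7 windows. These letters occur in 3.73%, 8.30%, 0.423% and 3.56% of all windows, in that order. The windows also differed in base composition, from 74.3% GC with 40 CpG sites in Klf4 to 42% GC with 2 CpG sites in Nr5a2, beside a median of 52.7% GC and 7 CpG sites over all windows.

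Expression values were read as FPKM, that is, fragments per kilobase of gene, scaled to the mapped reads of the library. The low values of short genes step in whole reads, which gave a depth of about 24840000 reads in PB and 24960000 in PB-TERRA. From this depth the reads behind each factor were estimated, from 303 for Prdm14 to 14424 for Esrrb, both in PB-TERRA. Intervals given below are exact 95% intervals for counting error only, and no difference has a replicate check. Both libraries carried the mESC markers listed for this check. Of the 8 markers, the lowest was Sall4 at 59.6 FPKM in PB and 67.0 in PB-TERRA, and Pou5f1, the core factor OCT4, had 745 and 773 FPKM. Of these markers 3 were higher and 5 lower in PB-TERRA, from Tdgf1 (314 and 278 FPKM, log2 ratio -0.18) to Sall4 (0.17).

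In PB mESCs the naive factors spanned a 29.6-fold range of level. Nanog, the homeodomain factor at the hub of the circuit, was the highest at 186 FPKM. Klf5, a Krüppel-like zinc finger factor, followed at 154 FPKM, and Esrrb, an orphan nuclear receptor, at 128 FPKM. These 3 genes stood among the top 4.86% of the 12263 genes with at least 1 FPKM in 1 library or both, the filter used throughout. Klf2 had 81.0 FPKM, Klf4 49.7 FPKM and Nr0b1, an atypical nuclear receptor that lacks a DNA-binding domain, 39.4 FPKM. The CP2-family factor Tfcp2l1 had 27.0 FPKM. Tbx3 (16.8 FPKM) and Nr5a2 (15.2 FPKM) were close neighbours, with counting intervals that, at the deposited gene lengths, lay side by side without overlapping. Prdm14, a PR-domain regulator that restrains FGF receptor signalling and de novo DNA methylation, was the lowest at 6.30 FPKM, at rank 7940. The 3 Krüppel-like factors made up 40.5% of the summed level of the 10 genes.

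**Figure D1:**
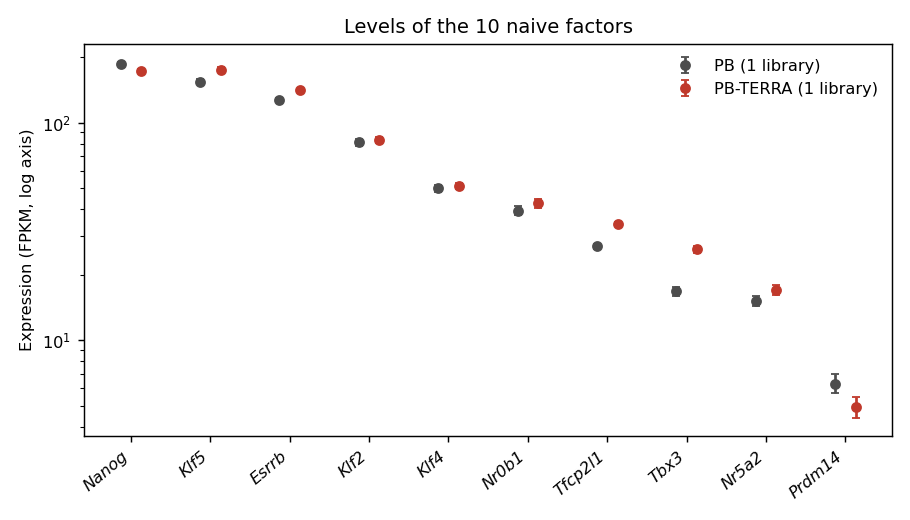
Expression of the 10 naive factors in FPKM on a log axis, in order of the PB level, with grey points for the PB library, red points for the PB-TERRA library and bars for the 95% counting interval. Nanog was highest in PB (186 FPKM), Klf5 stood level with it in PB-TERRA (175 and 173 FPKM), and Prdm14 was lowest in both libraries.

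The order was nearly the same in PB-TERRA mESCs, with 1 change at the top. Klf5 (175 FPKM, interval 171 to 179) came to stand beside Nanog (173 FPKM, interval 170 to 177), and these intervals overlap. The ratio of Klf5 to Nanog within a library, which does not depend on the scaling between libraries, was 0.827 in PB and 1.01 in PB-TERRA. At the lower end Tbx3 drew away from Nr5a2, the ratio between them being 1.10 in PB and 1.53 in PB-TERRA. Tbx3 was 2.66 times the level of Prdm14 in PB and 5.33 times in PB-TERRA. The range from the highest to the lowest factor widened to 35.7-fold. The summed level of the 10 genes was 6.36% higher in PB-TERRA, at 748 FPKM against 704 FPKM.

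All 10 factors passed the filter. Below, the difference of a gene is the log2 of its PB-TERRA level over its PB level, each with 0.1 FPKM added. Of the 10 factors 8 were higher and 2 were lower in PB-TERRA mESCs, whereas 48.6% of the 12263 genes were higher and 50.9% were lower. When both libraries were scaled to the same sum, 58.7% of all genes were higher, and the split of the factors was still 8 to 2. The median log2 ratio of the factors was 0.13, beside -0.0044 over all genes past the filter, whose SD was 0.31. A log2 ratio of at least 0.25, which is 18.9% higher, was reached by 2 factors, Tbx3 and Tfcp2l1, and by 8.02% of all genes. In the other direction it was reached by Prdm14 alone among the factors and by 9.6% of all genes. None of the factors (0 of 10) had doubled or halved, that is, lay 1 or more from 0 on the log2 scale, as 0.913% of all genes did. The counting interval lay above 0 for 6 factors and for 18.2% of all genes, and below 0 for 2 factors and for 17.6% of all genes. It included 0 for Klf2 and Klf4, but for 0 factors when both libraries were scaled to the same sum, where it lay above 0 for 25% of all genes. Counting intervals narrow as reads rise, so these interval shares also depend on level. All 10 factors had a mean of at least 5 FPKM. Of the 8653 genes at that level, 4.32% were at least 0.25 higher and 6.04% at least 0.25 lower, with an SD of 0.20. The list of factors was chosen with earlier results of these data known, so these counts describe the 2 libraries.

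**Figure D2:**
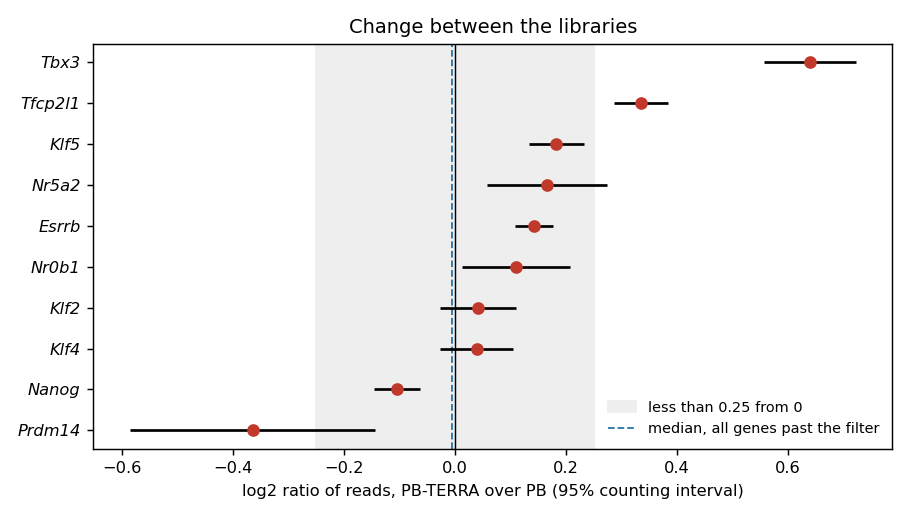
Log2 ratio of the estimated reads, PB-TERRA over PB, for each naive factor (points) with its exact 95% counting interval (lines), the zone under 0.25 from 0 in grey and the median of all genes past the filter as a dashed line at -0.0044. Tbx3 and Tfcp2l1 lie to the right of the grey zone, Prdm14 to the left of it, and the intervals of Klf2 and Klf4 cross 0.

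Tbx3, a T-box repressor that keeps Nanog on downstream of PI3K and that also takes part in extraembryonic endoderm formation, differed most. Its level was 16.8 FPKM in PB and 26.1 FPKM in PB-TERRA, 55.7% higher. The reads were 1919 and 3003, with a log2 ratio of 0.64 (interval 0.56 to 0.72). Of all genes past the filter, 1.42% had a log2 ratio at least this high. Tbx3 stood at rank 4654 of the expressed genes in PB and at rank 3322 in PB-TERRA. An antisense gene, Tbx3os1, overlaps 115 bases of a Tbx3 exon in the GENCODE M21 annotation, and the counting is not stated to use strand, so reads of that stretch cannot be told apart.

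Among the 4 factors linked to LIF and STAT3, Tfcp2l1 differed most. This STAT3 target, which can sustain self-renewal when expressed by itself, had 27.0 FPKM in PB and 34.1 FPKM in PB-TERRA. It was 26.1% higher, with 6155 and 7800 reads and a log2 ratio of 0.33 (interval 0.29 to 0.38), and 4.96% of all genes were at least as high. Its deposited length, 9285 bases, is the longest of the 10, and log2 ratios tended to be higher for long genes in this table. Genes of like length had a median log2 ratio of 0.06, and with that median taken off Tfcp2l1 stood at 0.28. A small nuclear RNA gene on the same strand, Gm23497, overlaps 130 bases of a Tfcp2l1 exon, and reads of that stretch cannot be assigned to either gene.

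Klf5 is a Krüppel-like factor of the inner cell mass and the trophectoderm. Its level was 154 FPKM in PB and 175 FPKM in PB-TERRA, 13.5% higher (log2 ratio 0.18, interval 0.13 to 0.23), and 13.1% of all genes were at least as high. Its deposited length, 1728 bases, is the shortest of the 10, and with the median of genes of like length taken off its log2 ratio was 0.23. The GENCODE M21 transcripts of Klf5 together hold 5151 distinct 50-base stretches, more than a transcript of the deposited length can hold. The FPKM level of Klf5, its place beside Nanog and its length correction all rest on the deposited length, whereas its log2 ratio as reported depends on it only through the 0.1 FPKM added. Other factors have such an excess too, among them Tbx3 (6660 stretches, 4724 bases), Nr5a2 (5939 and 3635) and Esrrb (6039 and 4218). Their levels and the ratio of Tbx3 to Nr5a2 rest on deposited lengths in the same way. Nr0b1, also called DAX1, a partner that dampens OCT4 and NR5A2 activity, had 39.4 and 42.5 FPKM (log2 ratio 0.11, interval 0.01 to 0.21). Its interval came close to 0, and 23.4% of all genes were at least as high. Klf4, the reprogramming factor that carries LIF signals to Sox2, had 49.7 FPKM in PB and 51.1 FPKM in PB-TERRA. The log2 ratio was 0.04 with an interval from -0.03 to 0.11, which includes 0. With both libraries scaled to the same sum the log2 ratio was 0.08 and the interval, from 0.01 to 0.14, lay above 0.

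The Wnt-linked pair differed by similar amounts. Esrrb, which binds many of the same enhancers as NANOG and can stand in for it, had 128 FPKM in PB and 141 FPKM in PB-TERRA. With 13003 and 14424 reads it was the most deeply covered factor, and its log2 ratio was 0.14 (interval 0.11 to 0.18). Nr5a2, also called LRH-1, a nuclear receptor that can replace OCT4 in reprogramming, had 15.2 and 17.0 FPKM (log2 ratio 0.16, interval 0.06 to 0.27). Of all genes, 18% were at least as high as Esrrb and 15.2% as high as Nr5a2.

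Both factors with lower levels stand in the group listed here as opposed by FGF-ERK signalling. This grouping was made with earlier results of these data known, and a part of ERK signalling was not tested. Nanog had 186 FPKM in PB and 173 FPKM in PB-TERRA, or 0.930 of the PB level (log2 ratio -0.10, interval -0.15 to -0.06), and 26.5% of all genes were at least as low. Of the 50-base stretches in its annotated transcripts, 4.53% also occur in transcripts of other genes, led by the pseudogene Nanog-ps1, and for the other factors this share was at most 0.927% (Tfcp2l1). Prdm14 had 6.30 FPKM in PB and 4.90 FPKM in PB-TERRA, 22.2% lower. Its reads were the fewest, 388 and 303, so its interval was the widest, from -0.59 to -0.14 around a log2 ratio of -0.36, and 4.92% of all genes were at least as low. Klf2, the third of this group, had 81.0 and 83.3 FPKM. Its log2 ratio was 0.04, with an interval from -0.03 to 0.11 that includes 0. Scaled to the same sum, or with the median of genes of like length taken off, Klf2 stood at 0.08 with an interval from 0.01 to 0.15, so whether the interval includes 0 depends on the scaling.

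**Figure D3:**
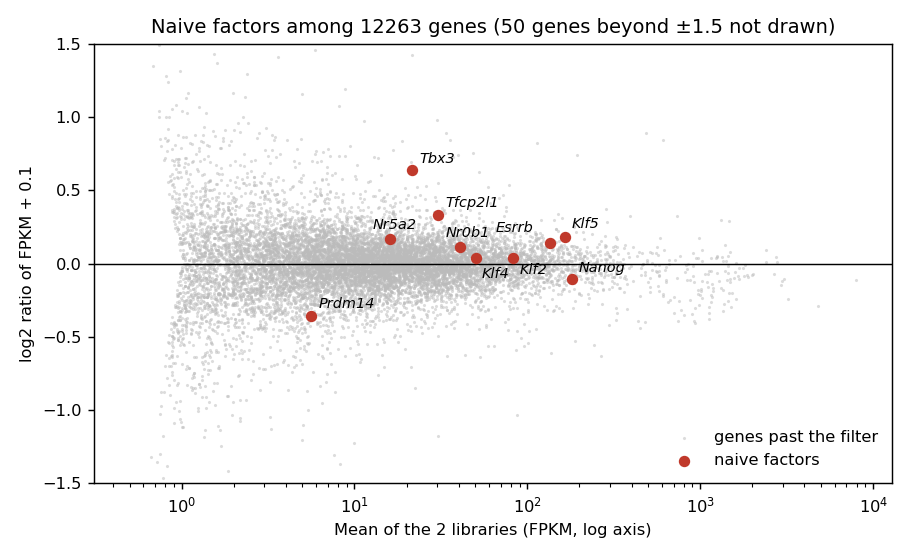
Log2 ratio of FPKM + 0.1 (PB-TERRA over PB) against the mean FPKM of both libraries on a log axis for the 12263 genes past the filter (grey) and the 10 naive factors (red), with 50 genes beyond 1.5 on the log2 scale not drawn. Tbx3 lies above most genes of its level, Prdm14 lies in the lower part of the cloud, and Klf2 and Klf4 lie near 0.

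The Krüppel-like factors did not differ by equal amounts. The ratio of Klf2 to Klf4 was 1.63 in both libraries, whereas that of Klf5 to Klf4 was 3.10 in PB and 3.42 in PB-TERRA. Of 14 further KLF genes, which share the zinc finger type but are not counted in the naive circuit, 11 passed the filter. Their median log2 ratio was -0.04, with 5 higher and 6 lower, and 0 reached 0.25 in either direction. Klf3, the most abundant of them, had 52.4 and 61.3 FPKM (log2 ratio 0.22), Klf9 had 41.6 and 45.0 FPKM (0.11), and Klf7, with the lowest ratio, had 5.48 and 4.70 FPKM (-0.22, interval -0.55 to 0.11).

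Relatives of the other factors were mostly low. Of the nuclear receptors closest to Esrrb, Nr5a2 and Nr0b1, only Esrra passed the filter, at 6.32 and 5.89 FPKM. Esrrg, Nr5a1 and Nr0b2 were at most 0.04 FPKM in either library. Of 15 other T-box genes 3 passed, namely Mga (18.8 and 21.0 FPKM), T (9.08 and 8.37 FPKM) and Eomes (6.13 and 5.05 FPKM, log2 ratio -0.27). Of 14 other PRDM genes 6 passed. Prdm4 (24.3 and 22.7 FPKM) and Prdm2 (15.6 and 17.5 FPKM) were the most abundant, and Prdm1 had 1.75 and 1.37 FPKM (log2 ratio -0.33). The 5 relatives of Tfcp2l1 all passed, and 0 of them reached 0.25. Ubp1 was the most abundant at 42.2 and 43.6 FPKM, followed by Grhl3 at 12.4 and 11.7 FPKM. Grhl1 had the lowest log2 ratio, -0.19, and Grhl2 the highest, 0.17.

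DNA-binding partners and cofactors of the naive factors were compared next. All 10 listed were higher in PB-TERRA, by small amounts, with a median log2 ratio of 0.08 and 0 genes past 0.25. Of all genes past the filter 48.6% were higher, and 58.7% when both libraries were scaled to the same sum. Pou5f1, Sox2 and Sall4 also stand among the mESC markers above. Of the 10, Pou5f1 was the most abundant (745 and 773 FPKM, log2 ratio 0.05), and Sox2, its partner on the composite element, had 134 and 145 FPKM (0.11). The highest ratios were those of Rif1, a telomere and replication timing factor (53.9 and 60.7 FPKM, 0.17), and of Sall4 (59.6 and 67.0 FPKM, 0.17). For 7 of the 10 the counting interval lay above 0, beside 18.2% of all genes (25% when scaled to the same sum). For Stat3, Smad1 and Cbfa2t2, the corepressor of PRDM14, the interval included 0.

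Of 15 other genes that mark the naive state 14 passed the filter, with 8 higher and 6 lower and a median log2 ratio of 0.16. Those past 0.25 were Jam2 (24.6 and 33.7 FPKM, log2 ratio 0.45), Dppa3 (5.79 and 7.53 FPKM, 0.37) and Pecam1 (14.4 and 17.9 FPKM, 0.31), and 0 were past it in the other direction. Spic did not pass, with 1 and 7 reads. The interval of Dppa3 started at -0.0055 and included 0. The most abundant of the list were Dppa5a, at 1163 and 1040 FPKM (log2 ratio -0.16), and Zfp42, also called Rex1, at 190 and 188 FPKM (-0.01). Summed FPKM of the 15 genes was 1958 in PB and 1867 in PB-TERRA, and thus lower in PB-TERRA, while the median ratio was above 0. The difference of Dppa5a by itself was larger than that of the sum.

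**Figure D4:**
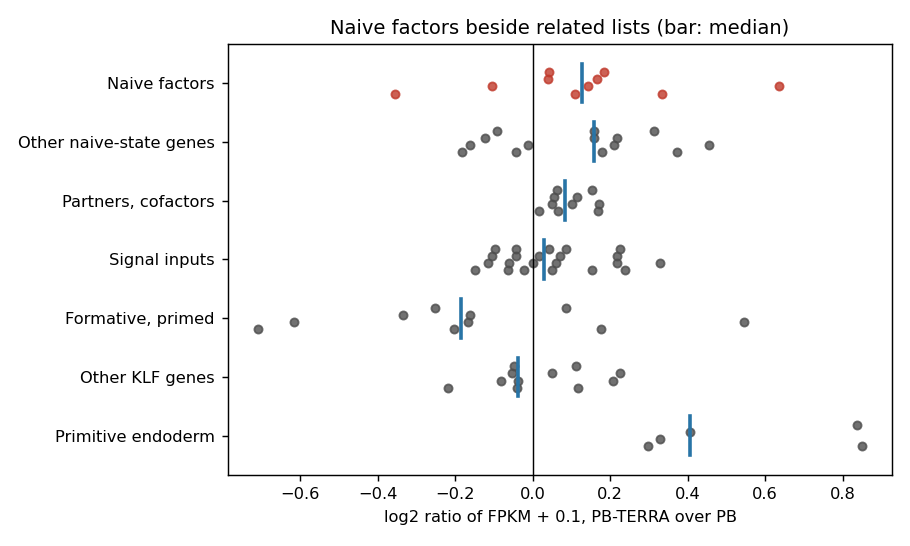
Log2 ratio of FPKM + 0.1 (PB-TERRA over PB) of each gene past the filter (points) and the median (blue bar) for the naive factors in red and 6 related lists in grey. The naive factors run from -0.36 for Prdm14 to 0.64 for Tbx3 with a median of 0.13, the formative and primed genes have a median of -0.18, and the 5 primitive endoderm markers drawn lie at 0.30 or above, 1 of which (Pdgfra) passed the filter through its PB-TERRA value alone.

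Genes of the signals that feed the circuit, a mixed list of ligands, receptors, kinases, inhibitors and targets, lay on both sides of 0. Of 22 signal genes 13 were higher and 9 lower, beside 48.6% and 50.9% of all genes, with a median log2 ratio of 0.03. The counting interval lay above 0 for 8 of the 22 and below 0 for 5, beside 18.2% and 17.6% of all genes. Axin2, a direct target of Wnt signalling, was the only 1 of the 22 past 0.25, at 5.75 and 7.25 FPKM (log2 ratio 0.33, interval 0.18 to 0.49). Spry4, a feedback inhibitor of ERK signalling, followed at 55.9 and 65.9 FPKM (0.24). Dusp6, a phosphatase that acts on ERK, had 33.6 and 39.4 FPKM (0.23), and Fgf4, the FGF ligand of mESCs, had 31.9 and 37.1 FPKM (0.22). Socs3, a STAT3 target that inhibits LIF signalling, had 55.1 and 51.4 FPKM (-0.10). Ctnnb1, which encodes β-catenin, was the most abundant at 247 and 240 FPKM (-0.04), and Spry2 had 102 and 109 FPKM (0.09). Genes that PRDM14 is known to repress, some of which stand in other lists as well, had a median log2 ratio of -0.08. Of the 5 listed 1 was higher, Dnmt3a (18.2 and 20.1 FPKM), and 4 were lower. Dnmt3b had 132 and 117 FPKM (log2 ratio -0.17), Dnmt3l 197 and 186 FPKM (-0.08), Fgfr1 30.8 and 28.5 FPKM (-0.12) and Fgfr2 4.72 and 4.52 FPKM (-0.06).

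Formative and primed genes, which come up as cells leave the naive state, had a median log2 ratio of -0.18. Of the 10 listed 3 were higher and 7 lower, beside 48.6% and 50.9% of all genes. At least 0.25 lower were 9.6% of all genes and 4 of the 10. These 4 were Zic2 (18.3 and 11.2 FPKM, log2 ratio -0.71), Fgf5 (2.46 and 1.57 FPKM, -0.62), Otx2 (11.6 and 9.21 FPKM, -0.33) and Sall2 (6.01 and 5.03 FPKM, -0.25). Dnmt3b, given above, was the most abundant of the list (132 and 117 FPKM, -0.17), followed by Pou3f1 at 18.5 and 16.5 FPKM (-0.16). Sox3 lay the other way, at 1.29 and 1.93 FPKM (0.55).

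Several naive factors are also used in other early lineages, so markers of those lineages were read in the same libraries. These markers were counted with no filter, since some of them exceed 1 FPKM in PB-TERRA alone, and 47.6% of all 18888 genes were higher without a filter. All 7 primitive endoderm markers were higher in PB-TERRA, and the 4 with at least 1 FPKM in both libraries had log2 ratios from 0.30 to 0.84. The summed level of the 7 was 10.5 FPKM in the PB library and 14.7 FPKM in the PB-TERRA library. Gata6 had 1.22 and 2.26 FPKM (log2 ratio 0.84), Dab2 5.04 and 6.35 FPKM (0.33) and Gata4 1.86 and 2.31 FPKM (0.30), while Pdgfra had 0.51 and 1 FPKM and Foxa2 0.17 and 0.47 FPKM. Of 6 trophoblast markers 4 were higher and 2 lower. Cdx2 had 1.19 and 2.13 FPKM (0.79), Hand1 1.36 and 2.65 FPKM (0.91), Tfap2c 21.9 and 18.6 FPKM (-0.24) and Krt8 142 and 141 FPKM (-0.01), and the defining marker Elf5 was at most 0.06 FPKM. Of 8 fibroblast markers 5 were higher and 3 lower. Of the 2 with at least 1 FPKM in both libraries, Col1a1 had 7.99 and 12.1 FPKM (0.60) and Thy1 had 9.16 and 8.39 FPKM (-0.13). The collagen genes Col1a2 (0.92 and 1.37 FPKM) and Col3a1 (0.21 and 0.47 FPKM) and the receptor gene Pdgfrb (0.94 and 1.05 FPKM) were also higher, Dcn had 0.38 and 0.36 FPKM, and Postn and Lum were at most 0.08 FPKM. Of 5 neural markers 2 were higher and 3 lower, with Tubb3 at 57.7 and 51.5 FPKM (-0.16), Nes at 27.3 and 20.9 FPKM (-0.38), Neurod1 at 2.44 and 4.25 FPKM (0.78), Sox1 at 1.06 and 1.56 FPKM (0.52) and Pax6 at 0.63 and 0.51 FPKM. Of 5 mesoderm markers 2 were higher and 3 lower. T and Eomes, given above, were lower, and Kdr had 0.79 and 1.11 FPKM. In bulk RNA a change in the share of cells of a type and a change in RNA per cell cannot be told apart. The part of these markers in the differences of the naive factors was not tested.

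The table assigns a biological process term to 9 of the 10 factors, Prdm14 being without any. The most frequent term among them, transcription from an RNA polymerase II promoter, was given to 4 of the 9 and to 606 of the 7927 expressed genes with a term. Hormone-mediated signaling was given to 3, Esrrb, Nr5a2 and Nr0b1, and to 20 genes in all. Only Tbx3 and Nanog, which lay on opposite sides of 0, carry stem cell population maintenance, a term of 44 genes.

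Of the 10 factors, the 8 higher and the 2 lower kept their side of 0 under each of the 6 alternatives that change a ratio. Other pseudocounts and the estimated reads cannot move a ratio across 0. Only the other scalings and the length correction could have done so. Tbx3 ranged from 0.60 to 0.68 and Prdm14 from -0.36 to -0.31, as the plot of the alternatives shows. The small differences moved more for their size. Klf2 and Klf4 each ranged from 0.04 to 0.08, and Nanog ranged from -0.10 to -0.07, the value nearest 0 being that with both libraries scaled to the same sum.

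**Figure D5:**
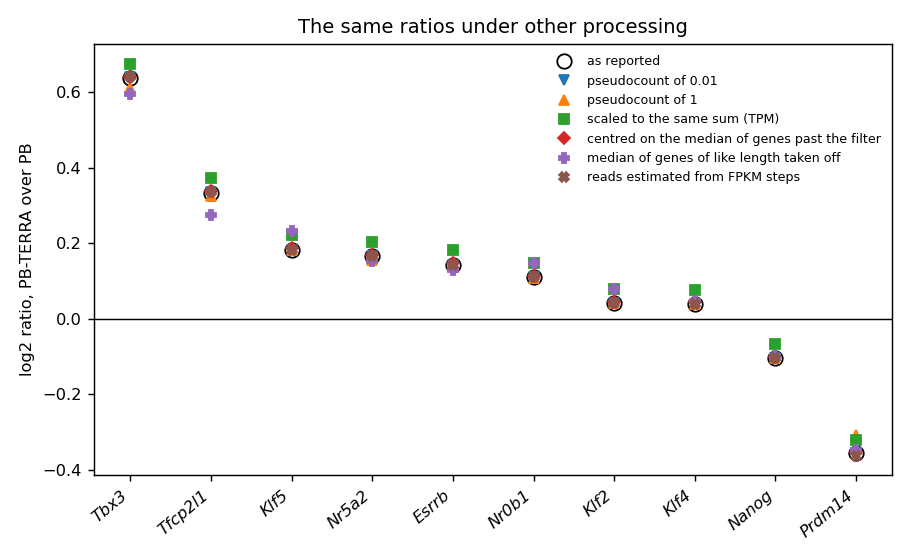
Log2 ratio (PB-TERRA over PB) of each naive factor as reported (open circle) and under 6 alternatives (filled symbols), which are other pseudocounts, other scalings, a correction for gene length and estimated reads. All symbols of Nanog and Prdm14 lie below 0, and all symbols of the other 8 factors lie above 0.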

How the data were processed

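The study sequenced 1 PB and 1 PB-TERRA library. The authors deposited 1 table of 18888 genes with FPKM values rounded to 2 decimals and never below 0.01. Its header names no unit, which was inferred from the values. The submitters' processing notes name HISAT, Cufflinks and mm9. The table also holds the authors' fold changes, p-values and adjusted p-values, which were not used.

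With 1 library per condition no test was made. The filter was 1 FPKM in 1 library or both. Differences are log2 ratios of FPKM + 0.1, a scale that understates the change of low genes. The folds used were 0.25 and 1 on the log2 scale. Reads were estimated after the table was seen. In genes of 250 to 700 bases under 1.5 FPKM, values lay on whole reads within the rounding (0.006 FPKM) for 68.5% of 359 genes in PB and 71.8% of 387 in PB-TERRA, against about 12.3% and 12.5% without steps. A fit put the usable length at 115 bases less than the deposited one. Intervals are exact binomial (Clopper-Pearson) for ratios and exact Poisson for levels. They assume that reads are independent molecules. The steps were tested on simulated data made of whole reads, at depths inside the range that the fit searched. That test cannot tell why the remaining values lay off the steps.

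The 10 factors and all lists were chosen with earlier results of these data known. Named were all 10 factors and, per list, the 2 most abundant genes, the 2 farthest from 0 and those past 0.5. Further genes were named after their values were seen, and 1 gene that this rule names is not reported here. Promoters are from RefSeq (GRCm38.p6), 1 window per gene, nearest to the principal GENCODE M21 transcript start. Shared 50-base stretches and exon overlaps are from GENCODE M21 (GRCm38). Both differ from the build in the notes, and the table holds no coordinates. Alternatives were the pseudocount, the filter, the scaling, a correction in 50 length bins and estimated reads. Computations ran in Python 3.11.15 with scipy 1.17.1, numpy 2.4.6 and pandas 2.3.3, and plots in matplotlib 3.10.9.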

Additional observations from a re-analysis of the deposited data

How the results depend on the processing

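No paired analysis was possible because each condition has 1 library. The counts of factors higher (8), at least 0.25 higher (2), at least 0.25 lower (1) and past 1 (0) were the same under the 6 alternatives that change a ratio. The 2 other filters keep all 10 factors and leave their ratios as they are, but they change the shares of all genes. At least 0.25 higher were 8.02% as reported, 4.32% at a mean of at least 5 FPKM and 14.8% with no filter. At least 0.25 lower were 9.6%, 6.04% and 14.6%, in that order. The median log2 ratio of the factors ranged from 0.12 with 1 FPKM added to 0.16 with both libraries scaled to the same sum. Of 60 values of single factors under an alternative, 58 lay inside the counting interval and 0 changed sign. Those from other pseudocounts and from estimated reads could not change sign. The 2 outside it were Esrrb, at 0.18 when scaled to the same sum, and Tfcp2l1, at 0.28 with the median of genes of like length taken off. Scaling to the same sum by itself shifted the median of all genes from -0.0044 to 0.03. Estimated reads were added after seeing the data. So were 3 other scalings of the counting intervals. The number of factors whose interval includes 0 was 2 as reported, 0 when scaled to the same sum and 1 with the median of genes of like length taken off. Counting error was widest for Prdm14 (388 and 303 reads). Leaving out a library was not possible.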
